A study of Homo sapiens with 4 samples.

Results

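The heme biosynthesis enzymes were examined in K562, a human erythroleukemia cell line, after exposure to AC-1041, an analog of thalidomide. The genes were ALAS1, ALAS2, ALAD, UROS, UROD, CPOX, PPOX, FECH and SLC25A38, chosen by name among the gene probes of the arrays. They were chosen with earlier results of these data known, as were the gene lists further below. Each of these 9 genes had 1 probe among 14297 gene probes, and the 9 probes were among the 8852 that could be tested. On each of 4 two-colour Agilent arrays, RNA from K562 cells that had received the drug for 4 h was hybridised together with RNA from control K562 cells of the same time point. The treated RNA carried the dye Cy5 on arrays 1 and 2 and the dye Cy3 on arrays 3 and 4. The labels call the control cells untreated, whereas the methods name a DMSO vehicle, and the labels give no dose. The paper does state a dose, but its methods and its results give it in different terms. The labels name no genetic change in either group. The methods name 4 samples per compound with their controls, but neither the methods nor the labels assign the arrays to separate cultures. The p-values below therefore measure only the spread between these 4 arrays, which may be technical. In limma that spread is drawn in part from the gene and in part from all probes.

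Heme is built by a chain of enzymes that starts and ends in the mitochondrion. ALAS1, the form present in all tissues, and ALAS2, the form of red cell precursors, join glycine to succinyl-CoA, and SLC25A38 is the mitochondrial carrier that brings in glycine for this first reaction. ALAD, UROS and UROD take part in assembling and trimming the porphyrin ring in the cytosol. CPOX and PPOX oxidise it at the mitochondrion, and FECH, which holds an iron-sulfur cluster, inserts iron. Erythroid cells make heme for hemoglobin, and GATA1 is known to drive several of these genes in that lineage.

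The quantity given throughout is the log2 of treated over control signal, so that 0 means equal signal and a negative value means less signal in treated cells. It measures RNA relative to all other probes of the same array, and in bulk RNA fewer cells with a transcript and less of it per cell cannot be told apart. In the fit across arrays, 4 of the 9 genes fell (UROS, CPOX, PPOX and FECH), SLC25A38 rose, and 4 (ALAS1, ALAS2, ALAD and UROD) were not past an adjusted p of 0.05 (limma, Benjamini-Hochberg over all probes tested). Of all 8852 probes tested, 13.1% fell and 23.2% rose by the same rule, 36.3% in all, so that a call was common on these arrays. Of all calls, 63.9% were higher, and with centring on the median in place of loess 79.5% were. Under that centring 25.8% of all probes rose and 6.65% fell, and the 9 genes gave 1 higher and 0 lower. The fitted ratios of the 9 genes ran from -0.32 to 0.35, and their median was -0.06, beside 0.01 for all probes. The changes were small, at most 1.28-fold.

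The arrays fell apart by dye orientation, and each gene is therefore described in both orientations. Across probes, the ratio correlated at 0.807 between arrays 1 and 2 and at 0.945 between arrays 3 and 4, but at -0.277 to -0.0854 between arrays of opposite orientation. The direction is the one that the dye labels give. The dye term of the fit was past an adjusted p of 0.05 for 57.5% of probes. The SD of the negative control spots was 226 to 308 on arrays 1 and 2 and 27.8 to 40.5 on arrays 3 and 4, so dye order and the quality of the arrays cannot be told apart. Standard errors and adjusted p-values draw on how far arrays sharing an orientation lay apart, for the gene itself and, through limma, over all probes tested. Each SD, by contrast, covers all arrays of 1 gene only. An exact sign-flip permutation test of 1 gene over 4 arrays (two-sided) cannot go below p = 0.125. On every array each of the 9 genes was well above background in both dyes and unsaturated. The cells carried the erythroid markers of a fixed list, of which 16 of 17 were on the array and 13 passed the background test everywhere, while 5 of 6 epithelial and liver markers on the array passed it nowhere. Of 7 lymphoid markers, 3 passed it everywhere and 2 nowhere.

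**Figure D1:**
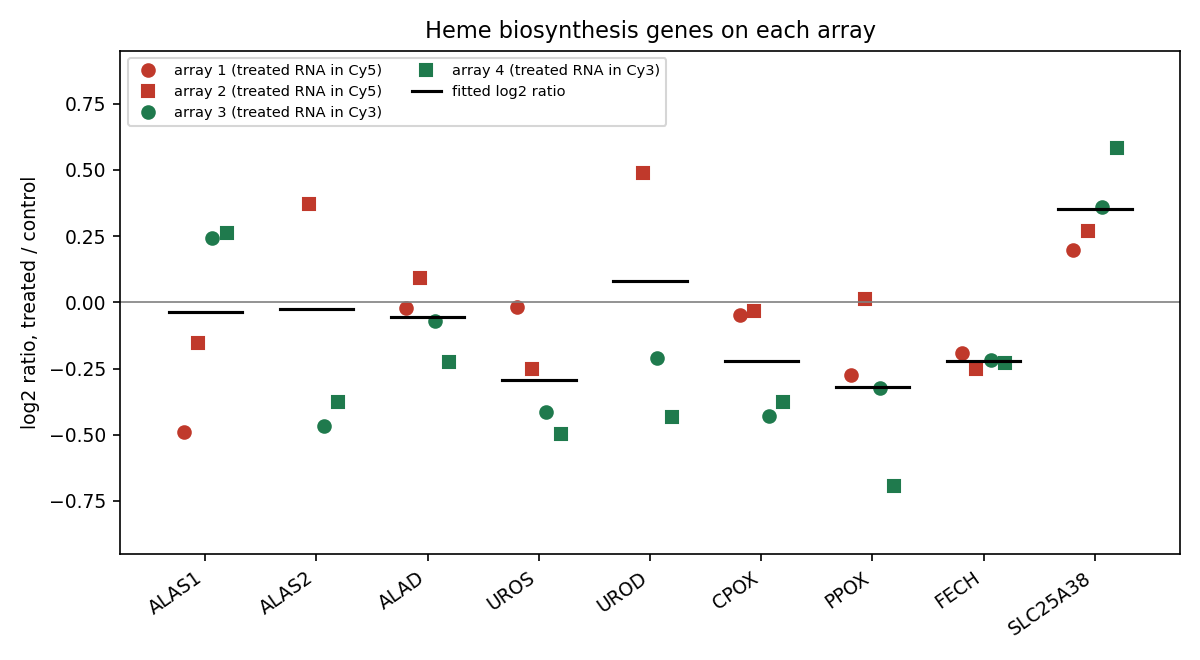
Log2 ratio of treated to control cells (vertical axis) for each gene (horizontal axis, enzymes in pathway order and then the carrier SLC25A38), with 1 point per array, red for treated RNA in Cy5 and green for treated RNA in Cy3, and a bar at the fitted ratio. The 4 points of FECH lie between -0.25 and -0.19, whereas those of ALAS1, ALAS2 and UROD fall on opposite sides of 0 in the 2 orientations. ALAS2 and UROD have no point for array 1, where their spots were marked as outliers.

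The probes of UROS and CPOX are shown because each call rests on a single stretch of 60 bases. The deposited files place the UROS probe at chr10:127476680-127486006 of hg18 on the minus strand, a span of 9327 bases, so its letters lie in more than 1 block of the genome. They place the CPOX probe at chr3:99782978-99783037 on the minus strand, without a gap.
UROS: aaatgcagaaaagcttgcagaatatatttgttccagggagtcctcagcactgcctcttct
CPOX: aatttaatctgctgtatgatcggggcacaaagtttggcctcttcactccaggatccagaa
The probe of FECH lies at chr18:53368764-53368823 on the minus strand, and that of SLC25A38 at chr3:39413144-39413203 on the plus strand. The files give no exon or intron for these positions.

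The first step had 2 enzymes on the array, and neither was called. ALAS1, whose probe lies at chr3:52221317-52221376 of hg18, had log2 ratios of -0.49 and -0.15 where treated RNA was in Cy5 and of 0.24 and 0.26 where it was in Cy3. The orientations did not overlap and lay on opposite sides of 0. The fitted ratio was -0.03 (SE 0.0754, SD 0.36, n = 4 arrays, limma adjusted p = 0.749), while the dye term had an adjusted p of 0.0130. The scanned signals of ALAS1 ran from 1785 to 2875 in treated and from 1879 to 2434 in control cells.

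ALAS2, the erythroid form, gave log2 ratios of 0.37 on array 2, -0.47 on array 3 and -0.38 on array 4. Its spot on array 1 was marked as an outlier and dropped, so the fitted ratio of -0.03 rests on 3 arrays (SE 0.0827, SD 0.46, limma adjusted p = 0.837). Before normalization, the Cy5 signal of this spot was 2.39, 2.37, 2.36 and 2.50 times its Cy3 signal on arrays 1 to 4. The brighter channel was thus Cy5 on every array, whichever RNA it held, and the signals reached 175720 in Cy5 on array 1. The dye term of ALAS2 had an adjusted p of 0.00627. Its probe lies at chrX:55052230-55052289.

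The carrier of the glycine used in that step moved the other way from the called enzymes. SLC25A38 had log2 ratios of 0.20 and 0.27 where treated RNA was in Cy5 and of 0.36 and 0.58 where it was in Cy3. Treated cells were above control cells on all 4 arrays, as for 14.7% of probes tested, and the Cy3 pair was the higher one. The scanned signals were 22319, 25521, 17429 and 19676.5 in treated cells and 16435, 13487, 14591 and 16539 in control cells, arrays 1 to 4 in order. The treated channel was the brighter one on every array, in Cy5 as in Cy3. SLC25A38 rose by a log2 ratio of 0.35 or 1.28-fold (SE 0.0686, SD 0.17, n = 4 arrays, limma adjusted p = 0.00603), and its dye term had an adjusted p of 0.170. Among probes, 12.4% were called higher and lay above 0 on every array.

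**Figure D2:**
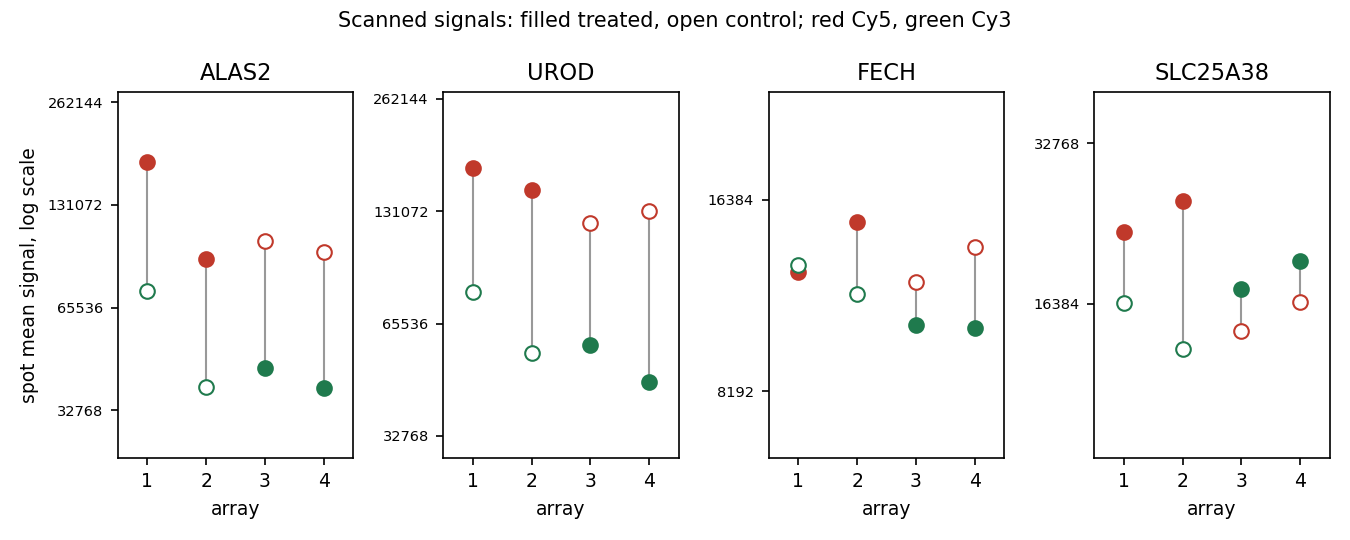
Scanned spot mean signal (vertical axis, log scale, no background subtracted) of ALAS2, UROD, FECH and SLC25A38 on arrays 1 to 4 (horizontal axis), with filled points for treated and open points for control cells, red for Cy5 and green for Cy3. For ALAS2 and UROD the red point is above the green one on every array, whereas for SLC25A38 the filled point is above the open one on every array.

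The cytosolic enzymes gave 1 call among the 3 on the list. ALAD, which condenses the product of the first step into a pyrrole, had log2 ratios of -0.02 and 0.09 in the Cy5 orientation and -0.07 and -0.23 in the Cy3 orientation. Its values lay close to 0, and 3 of the 4 were below it. The fitted ratio of ALAD was -0.06 (SE 0.0666, SD 0.13, n = 4 arrays, limma adjusted p = 0.544), and its dye term had an adjusted p of 0.269.

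UROS, which closes the ring, had log2 ratios of -0.02 and -0.25 where treated RNA was in Cy5 and of -0.42 and -0.50 where it was in Cy3. It was below 0 on all 4 arrays, with the lowest values in the Cy3 orientation and 1 Cy5 array next to 0. UROS fell by 0.30 on the log2 scale, a fold of 1.23 (SE 0.0694, SD 0.21, n = 4 arrays, limma adjusted p = 0.0137). Its dye term had an adjusted p of 0.0790.

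UROD, which removes carboxyl groups from the ring, had the same pattern as ALAS2. Its log2 ratios were 0.49 on array 2, -0.21 on array 3 and -0.43 on array 4, and the spot on array 1 was dropped as an outlier. The fitted ratio of UROD was 0.08 from 3 arrays (SE 0.0893, SD 0.48, limma adjusted p = 0.512), with an adjusted p of 0.00801 for the dye term. The Cy5 signal of UROD was 2.15, 2.73, 2.13 and 2.86 times the Cy3 signal on arrays 1 to 4, again above it whichever RNA it carried. Its probe lies at chr1:45253242-45253631 and spans 390 bases.

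The last 3 enzymes were all called lower in the fit across arrays, although none of them was with median centring. CPOX had log2 ratios of -0.05 and -0.03 in the Cy5 orientation and of -0.43 and -0.38 in the Cy3 orientation. All 4 values were below 0, but the Cy5 pair was next to it and did not overlap with the Cy3 pair. CPOX fell by 0.22 on the log2 scale, a fold of 1.17 (SE 0.0623, SD 0.21, n = 4 arrays, limma adjusted p = 0.0273), and its dye term was also past the threshold (adjusted p = 0.0374).

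PPOX had log2 ratios of -0.27 and 0.01 where treated RNA was in Cy5 and of -0.32 and -0.69 where it was in Cy3. It was below 0 on arrays 1, 3 and 4 and at 0.01 on array 2. PPOX fell by 0.32 on the log2 scale, a fold of 1.25, which was the lowest ratio among the 9 genes (SE 0.0857, SD 0.29, n = 4 arrays, limma adjusted p = 0.0227). Its dye term had an adjusted p of 0.0933.

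FECH, which completes heme, had log2 ratios of -0.19 and -0.25 in the Cy5 orientation and of -0.22 and -0.23 in the Cy3 orientation. The 4 arrays overlapped between orientations, and the mean was -0.22 in each. FECH fell by 0.22 on the log2 scale, a fold of 1.17 (SE 0.0624, SD 0.025, n = 4 arrays, limma adjusted p = 0.0267), and its dye term had an adjusted p of 0.993. It had the smallest SD over arrays of the 9 genes. The scanned signals of FECH were 12597, 15112, 10412 and 10303 in treated cells and 12918, 11636, 12144 and 13810.5 in control cells. The treated signal was the lower one on arrays 1, 3 and 4, and on array 2 it became lower only after normalization within the array.

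**Figure D3:**
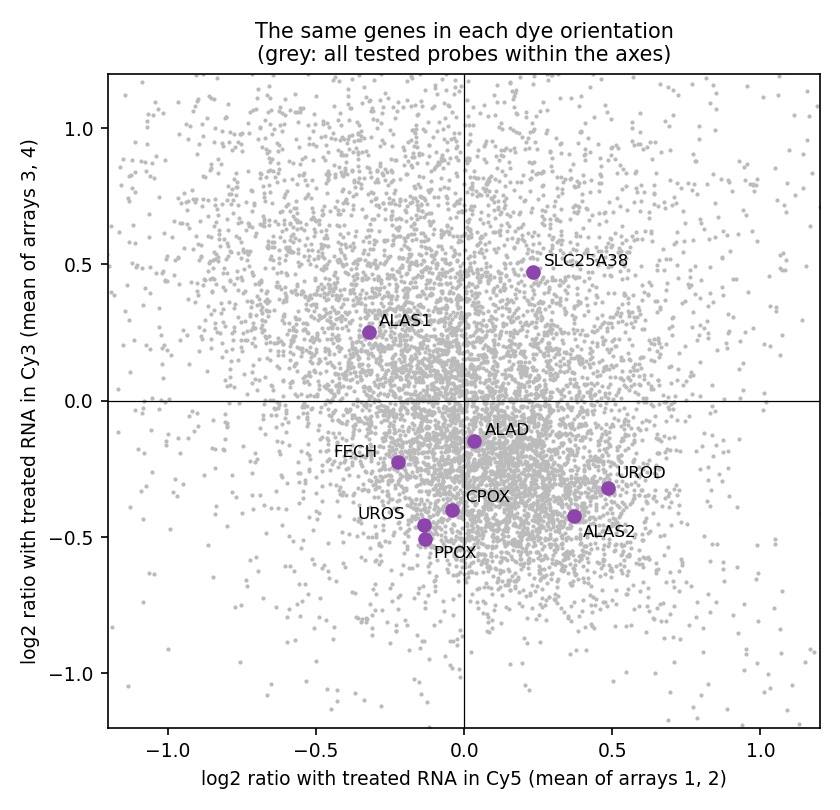
Mean log2 ratio of treated to control cells with the treated RNA in Cy5 (horizontal axis) against that with it in Cy3 (vertical axis), with the 9 genes in purple and all probes tested that lie within the axes in grey. UROS, CPOX, PPOX and FECH lie below 0 on both axes, SLC25A38 above 0 on both, and ALAS1, ALAS2, ALAD and UROD have opposite signs.

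With the treated RNA in Cy5, the mean ratio was below 0 for 5 of the 9 genes, as for 48.6% of probes, and the median of the 9 genes was -0.04. With the treated RNA in Cy3 it was below 0 for 7 of the 9 genes, as for 46.1% of probes, and the median was -0.32. Within an orientation the treatment and the dye cannot be told apart. UROS, CPOX and FECH, or 3 of the 9 genes, were below 0 on all 4 arrays, as were 8.65% of probes. All 3 were also called, while 6.25% of all probes were both called and below 0 on every array.

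The calls depended on the processing. The sign of each of the 5 called genes held in the 12 other settings in which it was fitted, but not all of these could move it. Both filters on dim probes, outlier spots kept and no dye term left the fitted ratios of the 5 genes as they were, by construction. The series table held nearly the same ratios as the processed signals. All 5 stayed past the threshold without background subtraction, under either other filter on dim probes, with outlier spots kept and without array 1 or array 2. Without array 4, where 10.2% of all probes rose and 2.66% fell, none of the 5 was past it. Without array 3, where 13.3% of all probes rose and 4.68% fell, PPOX (limma adjusted p = 0.04997) and SLC25A38 were past it. From the signals processed by Feature Extraction and from the authors' table of the series FECH was the only one past it, and with median centring SLC25A38 was. Median centring put UROS at -0.17, CPOX at -0.11 and PPOX at -0.21. Without the dye term, where 0.604% of all probes were called, none of the 9 genes was called and 1 of 9 had an unadjusted p under 0.05.

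**Figure D4:**
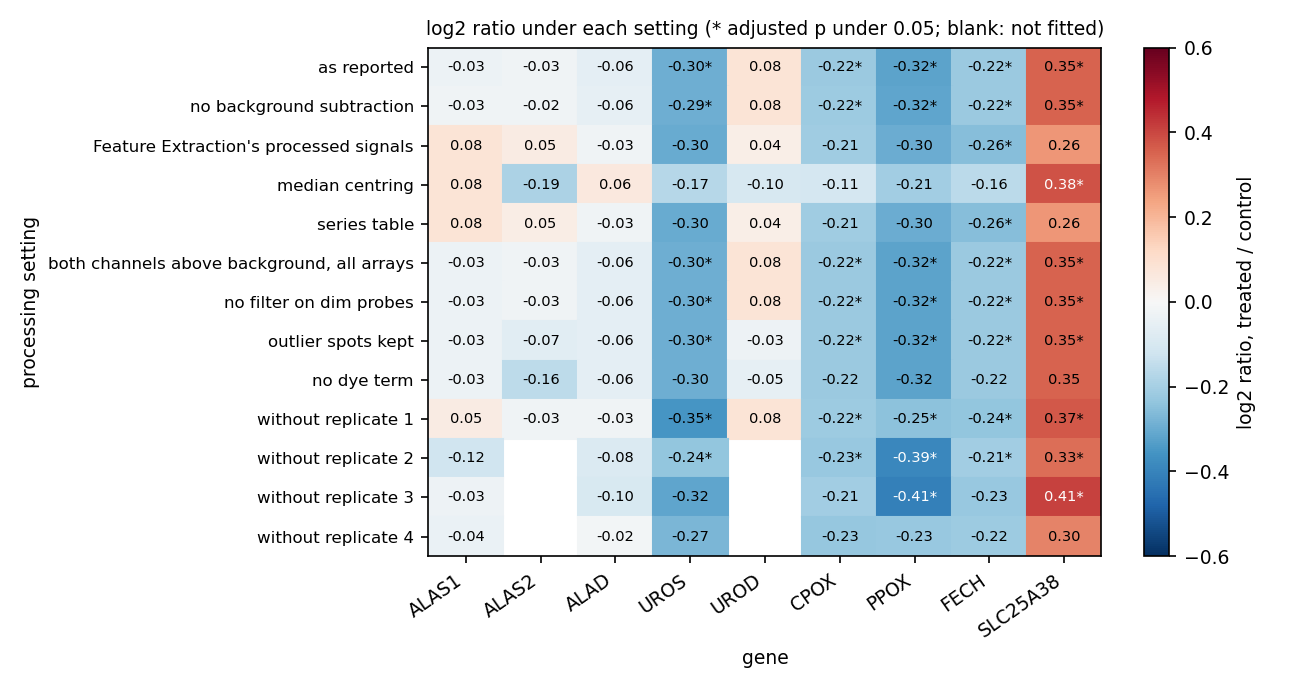
Log2 ratio of treated to control cells for each gene (horizontal axis) under each processing setting (vertical axis), with blue below 0, red above 0 and an asterisk where the adjusted p was under 0.05. UROS, CPOX, PPOX and FECH are blue and SLC25A38 is red in every setting, while the asterisks of these 5 genes are absent without the dye term and without replicate 4, and blank cells of ALAS2 and UROD could not be fitted.

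Around the pathway, 21 of 23 other genes of heme transport, breakdown and use could be tested. Of these, 8 fell, 2 rose and 11 were not called, while 13.1% of all probes fell and 23.2% rose. Their median ratio was -0.19, beside 0.01 for all probes. By orientation the median was -0.15 in Cy5 and -0.06 in Cy3. Of the 21 genes, 4 were both called lower and below 0 on every array, as were 6.25% of all probes. SLC25A37, the mitochondrial iron importer of erythroid cells, had log2 ratios of -0.36, -0.39, -0.46 and -0.24 on arrays 1 to 4, and it fell by 0.36 in the fit (SE 0.0682, limma adjusted p = 0.00523). It was lower in both orientations, which overlapped. FLVCR1, a heme exporter, had -1.15, -0.64, 0.40 and -0.03 and fell by 0.36 in the fit (limma adjusted p = 0.0327). Its Cy5 arrays were both lower than its Cy3 arrays, and array 3 was above 0. Without array 1 its fitted ratio was -0.23.

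On the other side of 0 in that list, BACH1, a repressor that binds heme, had log2 ratios of 0.07, -0.01, 1.21 and 1.35 and a fitted ratio of 0.65 (SE 0.0652, limma adjusted p = 0.000326). Its rise lay in the Cy3 orientation, and its probe was well above background in the treated channel on 2 arrays and in the control channel on 1. The fitted ratio of BACH1 was 1.41 with the signals processed by Feature Extraction and with the series table, and BACH1 was not tested where both channels had to pass the background test on every array. COX10, which makes heme O, rose by 0.21 (limma adjusted p = 0.0492) with 0.57 and 0.52 in the Cy5 orientation and -0.25 and -0.01 in the Cy3 orientation, but was at 0.03 with the processed signals and the series table and at 0.32 with median centring. HEBP1, a heme-binding protein, had a fitted ratio of 0.22 that missed the threshold (limma adjusted p = 0.0511). HMOX1, the inducible heme oxygenase, had a fitted ratio of -0.01 (limma adjusted p = 0.910), and its probe was well above background on 2 of 4 arrays in each channel.

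Of 12 tested genes that assemble iron-sulfur clusters, the cofactor that FECH carries, 3 fell and 0 rose, beside 13.1% and 23.2% of all probes. Their median ratio was 0.05. The highest fitted ratios of the list were those of the chaperones HSPA9 and HSCB, at 0.22 and 0.19 with limma adjusted p-values of 0.0664 and 0.0587. HSPA9 had -0.82 and -0.41 in the Cy5 orientation and 1.06 and 1.05 in the Cy3 orientation, and its dye term had an adjusted p of 0.000150. HSCB had -0.63 and -0.48 in the Cy5 orientation and 0.89 and 0.97 in the Cy3 orientation, with an adjusted p of 0.000101 for the dye term. FDXR, a reductase that supplies electrons, fell by 0.28 and was below 0 on all 4 arrays (limma adjusted p = 0.0203). GLRX5, a glutaredoxin that passes clusters on, fell by 0.22 (limma adjusted p = 0.0287), but had -0.64 and -0.67 in the Cy5 orientation and 0.25 and 0.18 in the Cy3 orientation. FDX1, a ferredoxin, had 0.14 (limma adjusted p = 0.136). The median of the list was -0.47 in the Cy5 orientation and 0.37 in the Cy3 orientation.

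Of 12 tested genes that supply glycine and succinyl-CoA, 1 rose, 2 fell and 9 were not called, with a median ratio of -0.02. By the same rule 23.2% of all probes rose and 13.1% fell. SHMT2, the mitochondrial enzyme that forms glycine from serine, had log2 ratios of 0.04, 0.47, 0.49 and 0.15 on arrays 1 to 4 and rose by 0.29 (SE 0.0927, limma adjusted p = 0.0425). SUCLG2 and SUCLA2, both subunits of succinyl-CoA synthetase, fell by 0.26 and 0.22 (limma adjusted p = 0.0223 and 0.0395). SUCLG2 was below 0 on all 4 arrays, whereas SUCLA2 was so only in the Cy5 orientation. SUCLG2 was at -0.14 with median centring, SUCLA2 at -0.49 with the processed signals and the series table, and SHMT2 at 0.18 without array 2 (limma adjusted p = 0.0875). CS, citrate synthase, had -0.16 (limma adjusted p = 0.0926). DLST and DLD, subunits of the dehydrogenase that makes succinyl-CoA, had 0.16 and 0.08, and DLD had -0.92 and -0.75 in the Cy5 orientation beside 1.05 and 0.95 in the Cy3 orientation.

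**Figure D5:**
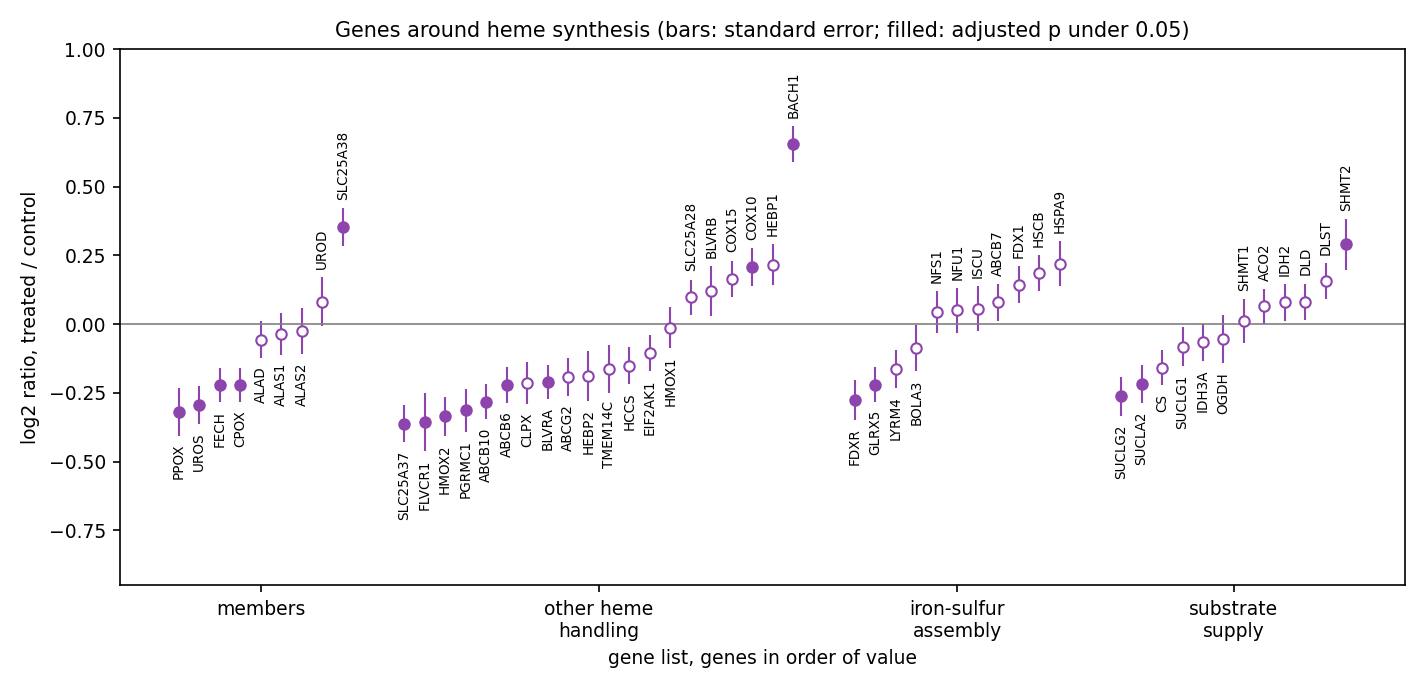
Fitted log2 ratio of treated to control cells (vertical axis) of the tested genes reported here in 4 lists (horizontal axis, genes in order of value within a list), with bars for the standard error and filled points for an adjusted p under 0.05. BACH1 at 0.65 is the highest of the heme handling list, and the 9 genes run from PPOX at -0.32 to SLC25A38 at 0.35.

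Of the 16 erythroid markers tested, 8 fell, 1 rose and 7 were not called, while 13.1% of all probes fell and 23.2% rose. The fitted ratios of the markers ran from -1.31 to 0.22, with a median of -0.25. In the Cy5 orientation the median of these markers was -0.25, and in the Cy3 orientation it was -0.77. The part of these markers in the ratios of the heme genes was not tested.

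The promoters of ALAS2 and CPOX are shown because both hold letters that GATA factors are known to bind. Picked for these letters, they do not stand for the other genes. The 250 bases before the start are from RefSeq on GRCh38.p14, chrX:55030978-55031227 for ALAS2 and chr3:98593612-98593861 for CPOX, both on the minus strand, and capitals mark the matches.
ALAS2: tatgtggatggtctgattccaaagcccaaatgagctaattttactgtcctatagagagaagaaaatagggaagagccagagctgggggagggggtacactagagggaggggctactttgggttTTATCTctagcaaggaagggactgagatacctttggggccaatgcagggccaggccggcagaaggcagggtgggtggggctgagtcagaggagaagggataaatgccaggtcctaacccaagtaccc
CPOX: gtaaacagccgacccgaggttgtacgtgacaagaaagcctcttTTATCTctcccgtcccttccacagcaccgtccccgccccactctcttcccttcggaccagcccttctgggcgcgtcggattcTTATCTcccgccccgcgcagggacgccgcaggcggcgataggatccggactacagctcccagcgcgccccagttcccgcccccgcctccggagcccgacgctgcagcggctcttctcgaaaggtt
The letters searched were AGATAA on both strands, with T also allowed in the first place and G in the last. The RefSeq table held 8 of the 9 genes, of which ALAD, ALAS2, CPOX and PPOX, or 4 of 8, had a match in at least 1 listed promoter. Of all 35116 promoters 22.3% had a match, but these were counted singly and not by gene, so the shares are in unlike units. ALAD and PPOX had 2 listed promoters each, with a match in 1 of them. The CACCC letters CCACACCC and CCCACCC, which erythroid factors of the KLF family are known to bind, were also searched. They were found in ALAS2, PPOX and SLC25A38, and in 20.3% of all promoters, again counted singly. These matches did not overlap with the GATA matches. Genes with a GATA match included called ones (CPOX and PPOX) and ones not called (ALAD and ALAS2), and FECH and SLC25A38 were called without one in this window.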

How the data were processed

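Treated and control RNA from K562 cells was compared on 4 two-colour arrays in a dye swap. The authors read the scans with Feature Extraction (9.5.1.1 per the file headers). They deposited, per the file headers, spot and local background intensity for each dye, not normalized, as well as processed intensity values and log10 ratios of Cy5 to Cy3. A table of log10 ratios deposited for the whole series matched those of the arrays after the sign of arrays 3 and 4 was turned (99.89% to 100% of values within 0.001). Its column medians were 0.

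From the mean and background intensities, normexp (offset 50) and loess (span 0.3, control spots at weight 0) gave log2 ratios. Spots marked as outliers were left out (1.57% to 8.08% per array). A probe was fitted if either channel stood well above background on 2 arrays or more. The model, run in limma 3.58.1 (R 4.3.3), had terms for treatment and dye. It was also run on simulated data with independent noise on each array and larger changes than those of the 9 genes. Such data cannot show whether the calls here hold. The 4 arrays shared a slide and scan date, so no batch was fitted. Members and lists were chosen with earlier results of these data known. All 9 genes were named, and of each other list the 3 highest and 3 lowest ratios, with HMOX1 added after its value was seen. No gene named here had a second probe. Some results of these lists are not reported here, although the counts over each list include them. The array number limits the precision. Alternatives were other backgrounds, centring, filters, thresholds, no dye term and leaving out each array.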

Additional observations from a re-analysis of the deposited data

How the results depend on the processing

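Counts are given first for 4 alternatives in this order, the processed signals of Feature Extraction, centring on the median, the series table and no dye term. The 9 heme genes gave 0, 1, 0 and 0 higher and 1, 0, 1 and 0 lower. Over all probes, 17.8%, 25.8%, 17.9% and 0.559% were higher and 13%, 6.65%, 12.5% and 0.0448% were lower. The heme handling list gave 1, 4, 1 and 0 higher and 4, 4, 4 and 0 lower, the iron-sulfur list 1 higher and 1 lower with median centring and 0 lower without the dye term, and the substrate list 0 higher in each and 0 lower with median centring and without the dye term. Where both channels had to pass the background test on every array, the iron-sulfur list gave 2 higher and the substrate list 1 lower. In that setting 22.8% of all probes were higher and 19.4% lower. With no filter on dim probes heme handling gave 1 higher, and with outlier spots kept it gave 1 and the substrate list 0. The shares of all probes called higher were 15.2% and 21.1% in these 2 settings. At an adjusted p under 0.01, 1 of the 9 genes was higher and 0 were lower, beside 14.1% and 5.09% of all probes. Leaving out 1 array at a time gave, for higher and lower calls, 0 to 1 and 0 to 4 of the 9 genes, 1 to 3 and 1 to 9 in heme handling, 0 to 2 and 0 to 4 in iron-sulfur assembly, and 0 to 2 and 0 to 2 in substrate supply. The low ends for the 9 genes came without array 4, where 10.2% of all probes were higher and 2.66% lower.

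The sign turned only in genes not called. ALAS1 was at 0.0815 with processed signals, 0.0811 with median centring, 0.0815 with the series table and -0.120 to 0.0498 with 1 array left out, the upper value being without replicate 1. ALAS2 was at 0.0469 with processed signals and 0.0467 with the series table, and ALAD at 0.0644 with median centring. UROD was at -0.100 with median centring, -0.0308 with outlier spots kept and -0.0525 without the dye term. The cause was not tested. ALAS2 and UROD could not be fitted without replicate 2, 3 or 4. Of all calls, 63.9% were higher as reported, 79.5% with median centring (2286 higher and 589 lower) and 92.6% without the dye term. The wider background of arrays 1 and 2 limits ratios of dim probes.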
